A study of Mus musculus with 8 samples.

Results

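The genes described here serve acetylcholine signalling in the retina: 4 genes of acetylcholine handling (Chat, Slc18a3, Slc5a7 and Ache), the starburst cell receptor gene Megf10, and the 5 nicotinic receptor subunit genes Chrna3, Chrna4, Chrna6, Chrnb2 and Chrnb3. They were chosen by name, and all 10 were found among the 17500 genes of the deposited table and passed the count filter that kept 16797 genes for testing. Whole retinas of 4 Rbfox2-/- mice (M893, M901, M902, M909) and 4 controls (M833, M894, M896, M898) were sequenced as poly(A)-selected RNA, 1 library per mouse. All 8 mice had a C57BL/6J strain background and were 6 months of age. Rbfox2-/- mice were homozygous Rbfox2 fl/fl with a tamoxifen-inducible Cre transgene, and the age-matched controls were heterozygous Rbfox2 fl/+, so that every mouse carried a floxed allele. The labels give tamoxifen for 4 months to all samples, controls included, whereas the methods describe it only for the homozygous Cre carriers as a short course completed about that long before sampling. The methods also name corn oil as a vehicle, without saying which mice received it. The transgene drives Cre in many cell types, so that the deletion was not aimed at cholinergic cells, and whether the sequenced controls carried Cre is not given in the sources used here. The comparison asks whether loss of Rbfox2, an RNA-binding splicing regulator, changed the transcript level of these genes.

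In the mammalian retina, acetylcholine is made by starburst amacrine cells, a mirror pair of interneuron populations whose dendrites lie in 2 thin layers of the inner plexiform layer and which are required for direction-selective responses. Choline is taken up by the high-affinity transporter of Slc5a7, acetylated by choline acetyltransferase (Chat) and packed into vesicles by the transporter of Slc18a3, and released acetylcholine is cleaved by acetylcholinesterase (Ache). Nicotinic receptors are cation channels built from alpha and beta subunits, and ganglion cells, the output neurons of the retina, are known to carry receptors with the products of Chrna6, Chrnb3 and Chrnb2.

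The library totals ranged from 160630226 to 211283591 counts, at which 3 counts, taken as the smallest detectable amount, are worth 0.0144 to 0.0189 CPM (counts scaled by the normalized library size), a limit that covers counting error only. Rbfox2 transcripts remained in Rbfox2-/- retinas at 53.6 to 59.4 CPM, against 144 to 157 CPM in controls (log2 fold change -1.41, FDR = 5.51e-07). The floxed allele loses only some exons of Rbfox2, so gene counts do not tell intact transcripts from those of a deleted allele. FDR denotes here the p of edgeR's quasi-likelihood test after Benjamini-Hochberg adjustment over all 16797 genes, and positive log2 fold changes mean more transcript in Rbfox2-/- retinas. The libraries of M901 and M902 stood apart from the rest on the first principal component, and M909 on the second. M901 and M902 had 1440 and 1739 CPM of Xist, a transcript of the inactive X chromosome, where the other 6 libraries had 1.71 to 2.22 CPM. These 3 are Rbfox2-/- mice, so the differences with the lowest p are also given without them. Retinal identity was seen in the marker sums, with 1369 to 1538 CPM for 6 bipolar cell genes, 3823 to 4426 CPM for 5 Muller glia genes and 4.25 to 8.40 CPM for 5 skeletal muscle genes over all mice. The sum of 6 pigment and ciliary epithelium genes varied more, with 70.8 to 168 CPM in controls and 47.5 to 148 CPM in Rbfox2-/- mice. The Muller glia sum was 4098 to 4426 CPM in controls and 3823 to 4028 CPM in Rbfox2-/- mice, and the sum of 5 cone genes was 808 to 821 CPM and 861 to 985 CPM, so that neither overlapped between the groups. In the Muller glia sum, Glul had means of 3384 CPM in controls and 3002 CPM in Rbfox2-/- mice (log2 fold change -0.17). The log2 fold changes were 0.05 for Rlbp1, 0.04 for Aqp4, -0.04 for Slc1a3 and -0.003 for Sox9. In the cone sum they were 0.26 for Opn1sw, 0.20 for Arr3, 0.07 for Pde6h, 0.05 for Gnat2 and -0.23 for Opn1mw. The genes of each sum thus differed in sign, with 4 of the 5 cone genes above 0. The part of either sum in the differences below was not tested.

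Of the 10 genes, 0 passed an FDR of 0.05 in edgeR's quasi-likelihood test, against 0.0655% of all genes tested. At an unadjusted p under 0.05 there were 3 of the 10, against 13.3% of all genes: 2 of them, Chrna3 and Chrnb3, had higher means in Rbfox2-/- retinas (6.42% of all genes) and 1, Slc5a7, had a lower mean (6.87%). The groups of mice overlapped in each of the 10, whereas they did not overlap in 7.03% of all genes, 3.64% with all Rbfox2-/- mice higher and 3.39% with all of them lower. The log2 fold changes were above 0 for 5 genes and below 0 for 5, and their median was -0.0056, close to the median of all genes (0.0016). DESeq2, limma-voom and limma-trend also gave 0 of the 10 at an FDR under 0.05 and the same count of 3 at an unadjusted p under 0.05. In bulk tissue, fewer cells of a type and less RNA per cell cannot be told apart, and this holds for every level below.

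**Figure D1:**
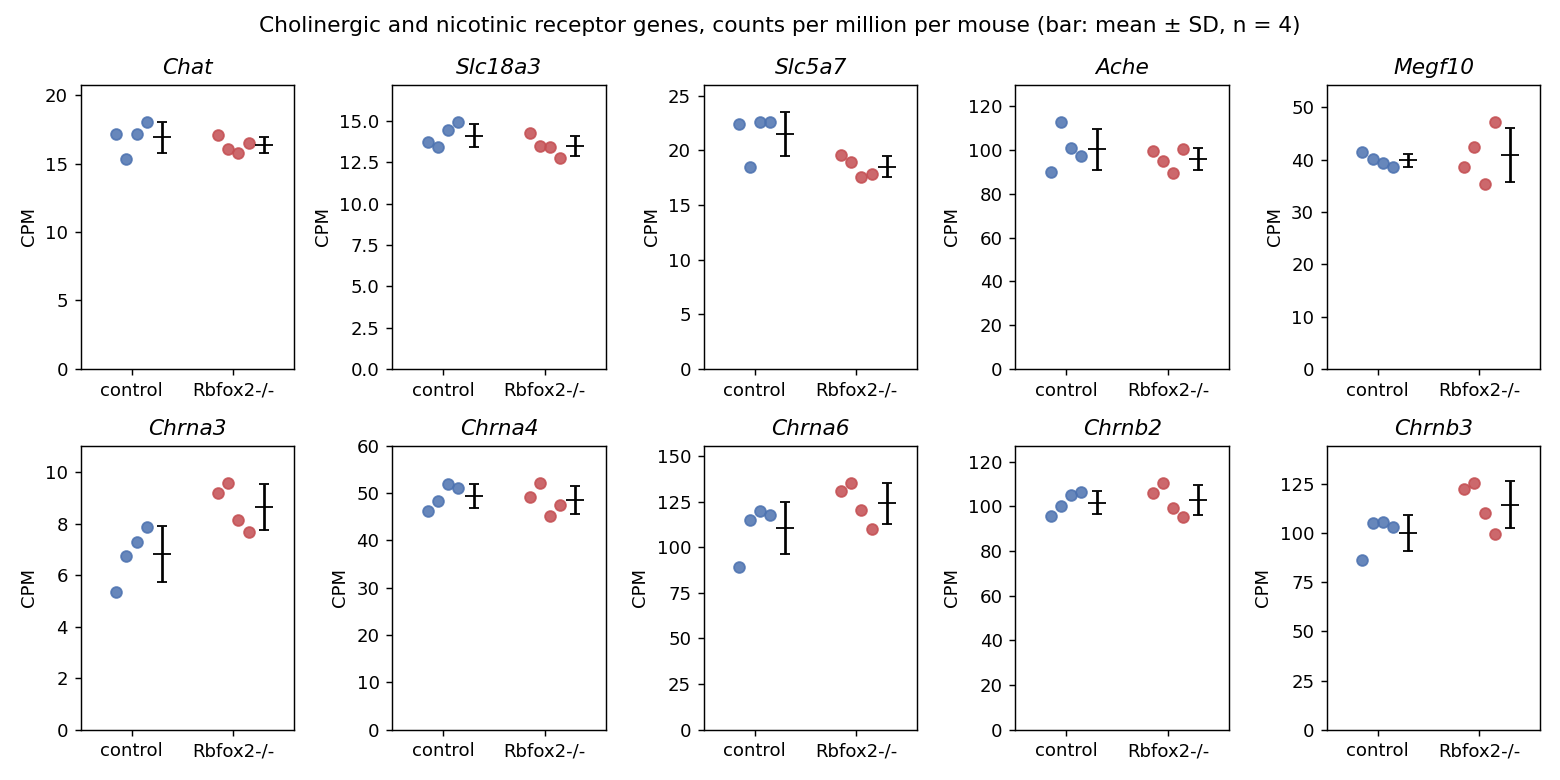
Level of each gene in CPM (vertical axes, starting at 0) in the 4 control (blue) and 4 Rbfox2-/- (red) retinas, 1 point per mouse, with the mean and SD of each group beside it. The Rbfox2-/- mean is lower for Slc5a7 and higher for Chrna3 and Chrnb3, and in each of the 10 panels the groups overlap.

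Chat and Slc18a3 lie in one locus on the minus strand of chromosome 14 of the GRCm38 build. In the GENCODE M21 annotation Chat spans chr14:32408203-32465989, and Slc18a3 spans chr14:32462438-32464850, within intron 1 of the Chat transcript that has 16 exons. The annotated exons of these genes share 0 bases, so that fragments of mature transcripts could be assigned to one or the other. Each gene has a start site of its own, and the RefSeq promoter windows (GRCm38.p6, 250 bases before to 50 after the start, minus strand) are shown because they differ in composition although the genes share a locus. Capitals mark the GC box, GGGCGG on either strand.
Chat, chr14:32465860-32466159: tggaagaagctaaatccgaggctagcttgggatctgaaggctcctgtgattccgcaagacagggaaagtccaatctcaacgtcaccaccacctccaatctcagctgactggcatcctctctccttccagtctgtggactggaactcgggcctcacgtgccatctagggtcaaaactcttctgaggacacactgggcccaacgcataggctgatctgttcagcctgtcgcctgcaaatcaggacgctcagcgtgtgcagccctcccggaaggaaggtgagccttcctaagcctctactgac
Slc18a3, chr14:32464801-32465100: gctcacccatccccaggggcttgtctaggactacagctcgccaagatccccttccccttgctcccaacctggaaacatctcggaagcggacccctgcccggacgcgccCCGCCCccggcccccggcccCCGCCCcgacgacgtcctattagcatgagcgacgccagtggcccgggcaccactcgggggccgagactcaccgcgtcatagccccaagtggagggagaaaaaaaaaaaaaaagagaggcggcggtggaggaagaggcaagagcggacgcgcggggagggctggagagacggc
The Slc18a3 window held 2 GC boxes and had 67.0% G and C, and the Chat window held 0 GC boxes and had 55.7%. The GC box was present in 35.7% of 32851 promoter windows of the same length. The Chat window held the letters CCAAT (either strand) in 2 places, a pentamer found in 37.4% of the windows, and the Slc18a3 window in 0. These matches describe the letters and were not tested as binding sites.

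Transcripts of both genes of this locus had similar levels in the 2 groups. Chat had 17.1 CPM in control M833, 15.3 in M894, 17.1 in M896 and 18.04 in M898 and 17.1 CPM in Rbfox2-/- mouse M893, 16.0 for M901, 15.8 for M902 and 16.5 for M909. All 4 Rbfox2-/- values fell within the control range. The log2 fold change of Chat was -0.05 (standard error 0.058, 95% interval -0.18 to 0.08, FDR = 0.751). Slc18a3, in the same order of mice, had 13.7, 13.4, 14.4 and 14.9 CPM in controls and 14.3, 13.5, 13.4 and 12.8 CPM in Rbfox2-/- retinas, where M909 alone lay below the controls. Its log2 fold change was -0.07 (standard error 0.055, 95% interval -0.19 to 0.06, FDR = 0.643). The 95% intervals as fold changes were 0.884 to 1.06 for Chat and 0.878 to 1.04 for Slc18a3, so that a larger loss of either transcript lay outside them.

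Slc5a7 (chr17:54273590-54299034, minus strand), the transporter that limits the supply of choline for acetylcholine synthesis, had the lowest p of the 10 genes. It had 22.4 CPM in control M833, 18.5 in M894, 22.6 in M896 and 22.6 in M898 and 19.6 CPM in Rbfox2-/- mouse M893, 19.0 for M901, 17.6 for M902 and 17.8 for M909. All Rbfox2-/- mice lay below 3 of the controls, and control M894 fell among them. The group means were 18.5 ± 0.958 CPM in Rbfox2-/- and 21.5 ± 2.02 CPM in control retinas (SD, n = 4 each). The log2 fold change was -0.22 (standard error 0.072, 95% interval -0.38 to -0.06), with an unadjusted p of 0.0121 and an FDR of 0.268 in edgeR's quasi-likelihood test. Without M894 it was -0.29 (FDR = 0.119 in edgeR's test), and without M901 and M902 it was -0.21 with an unadjusted p of 0.0586 in the same edgeR test. Without M909 it was -0.20 (unadjusted p = 0.0308, edgeR). The sum of 5 amacrine cell markers (Tfap2a, Tfap2b, Tfap2c, Gad2 and Slc6a9) was 660 to 715 CPM in controls and 640 to 671 CPM in Rbfox2-/- mice, and its part in the Slc5a7 difference was not tested.

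Relative to Chat, Slc5a7 separated the groups by a narrow margin, between 0.641 in M901 and 0.655 in M894. On the FPKM scale (fragments per kilobase of transcript and sequencing depth, as deposited), the ratio of Slc5a7 to Chat was 0.710 in control M833, 0.655 in M894, 0.715 in M896 and 0.680 in M898. It was lower in each Rbfox2-/- mouse than in any control, with 0.641 in M901, 0.623 in M893, 0.606 in M902 and 0.587 in M909. This ratio was formed after the levels had been seen and is given without a test. How often ratios of other genes separate the groups was not counted.

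Ache (chr5:137287519-137294466, plus strand) and Megf10 showed no group difference beyond the variation of single mice. Ache ranged from 90.1 to 113 CPM in controls and from 89.4 to 100.4 CPM in Rbfox2-/- retinas (log2 fold change -0.06, standard error 0.066, 95% interval -0.21 to 0.08, FDR = 0.720). Megf10 (chr18:57133090-57297467, plus strand) encodes a membrane receptor through which starburst cells space themselves and form their network during development. Its controls lay close together at 38.6 to 41.5 CPM, and the Rbfox2-/- mice spread on both sides of them, from 35.3 CPM in M902 to 47.2 CPM in M909. The log2 fold change of Megf10 was 0.04 (standard error 0.079, 95% interval -0.14 to 0.21, FDR = 0.887), and it turned to -0.04 without M909. The lincRNA Gm42456 overlaps Ache and the antisense gene Gm2990 overlaps Chat on the opposite strand. Whether fragments were counted by strand is not given in the sources used here.

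Of the nicotinic subunit genes, Chrna6 (chr8:27403212-27413944, minus strand) and Chrnb3 (chr8:27368711-27399730, plus strand) are neighbours on chromosome 8 with 3481 bases between them. Chrna3 (chr9:55010111-55026562, minus strand) belongs to a cluster on chromosome 9, with 2331 bases to Chrna5 and 1591 bases to Chrnb4. Chrna4 (chr2:181018380-181043546, minus strand) and Chrnb2 (chr3:89746195-89764632, minus strand) stand on chromosomes of their own. Chrnb2 overlaps Adar, a gene on the opposite strand with a log2 fold change of -0.01 (FDR = 0.961).

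Chrna3, an alpha subunit best known from autonomic ganglia and also used by retinal neurons, had the lowest level per transcript length of the 10 genes and the log2 fold change farthest from 0. It had 5.33 CPM in control M833, 6.76 in M894, 7.31 in M896 and 7.86 in M898 and 9.18 CPM in Rbfox2-/- mouse M893, 9.59 for M901, 8.14 for M902 and 7.70 for M909. Rbfox2-/- mice M893, M901 and M902 were above all controls, M909 was just under the highest control, and M833 was the lowest of all mice. The means were 8.65 ± 0.884 CPM in Rbfox2-/- and 6.81 ± 1.09 CPM in control retinas (SD, n = 4 each). The log2 fold change was 0.35 (standard error 0.12, 95% interval 0.08 to 0.61), with an unadjusted p of 0.0165 and an FDR of 0.283 in edgeR's quasi-likelihood test. It was 0.24 without M833 (unadjusted p = 0.0306, edgeR), 0.40 without M909 (unadjusted p = 0.0125, edgeR) and 0.31 without M901 and M902 (unadjusted p = 0.0825, edgeR).

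Chrnb3, an accessory beta subunit that assembles with the Chrna6 product, had 86.2 CPM in control M833, 104.9 in M894, 105 in M896 and 103 in M898 and 122 CPM in Rbfox2-/- mouse M893, 126 for M901, 110.3 for M902 and 99.4 for M909. M833 lay below every other mouse and M909 below 3 of the controls. The log2 fold change was 0.19 (standard error 0.084, 95% interval 0.01 to 0.38), with an unadjusted p of 0.0421 and an FDR of 0.363 in edgeR's quasi-likelihood test. Without M833 it was 0.13 (unadjusted p = 0.115, edgeR), without M909 it was 0.26 (unadjusted p = 0.00828, edgeR), and without M901 and M902 it was 0.15 (unadjusted p = 0.198, edgeR). Chrna6, an alpha subunit found in few neuron types, had 89.0, 115, 119.7 and 118 CPM in the same controls and 131, 135, 120.3 and 109.8 CPM in the same Rbfox2-/- mice. The order of mice was nearly that of Chrnb3, again with M833 lowest, and the log2 fold change was 0.17 (standard error 0.096, 95% interval -0.05 to 0.38, FDR = 0.480). Without M833 the log2 fold change of Chrna6 was 0.07 (unadjusted p = 0.285, edgeR).

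Chrna4 and Chrnb2, whose products form the common heteromeric nicotinic receptor of the brain, had closely similar levels in both groups. Chrna4 ranged from 46.2 to 51.9 CPM in controls and from 45.1 to 52.2 CPM in Rbfox2-/- retinas, and its log2 fold change was -0.03 (standard error 0.055). Chrnb2 ranged from 95.6 to 106 CPM and from 95.4 to 111 CPM in the same groups, and its log2 fold change was 0.02 (standard error 0.052). The sign of each turned with 1 library, to 0.01 for Chrna4 without M902, and to -0.02 for Chrnb2 without M833 or without M901. For the 7 of the 10 genes with an unadjusted p of at least 0.05, the 95% intervals covered changes between 0.865-fold and 1.30-fold, so that larger changes lay outside the interval of each.

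**Figure D2:**
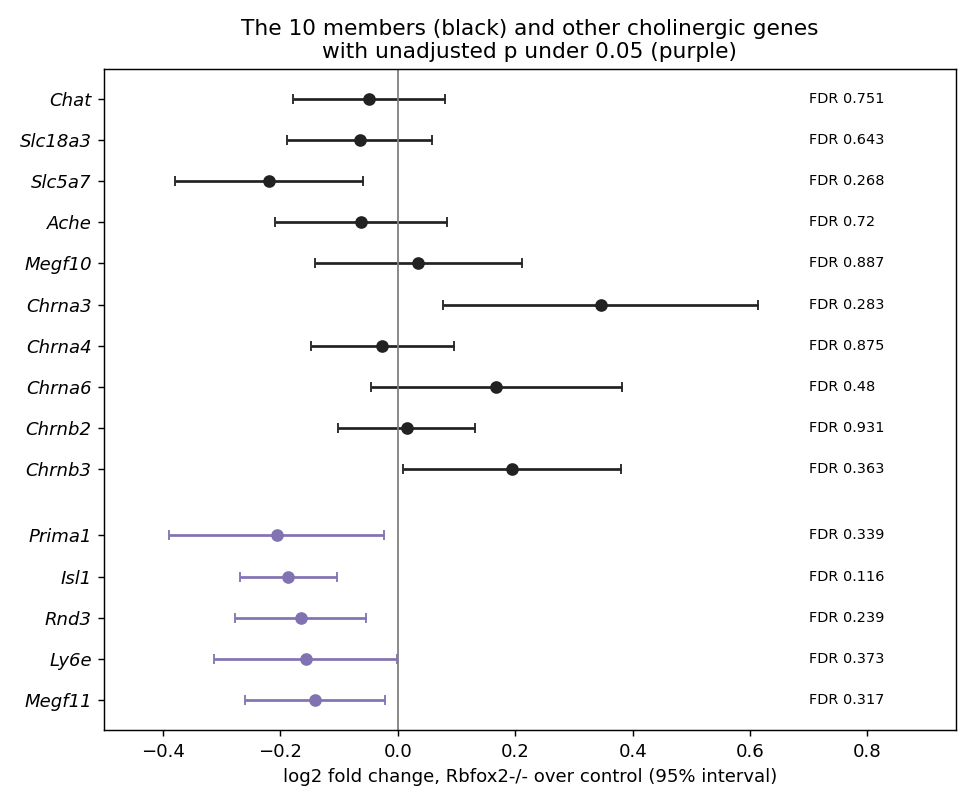
Log2 fold change of Rbfox2-/- over control retinas (horizontal axis) with 95% intervals for the 10 genes (black) and for the 5 other cholinergic genes with an unadjusted p under 0.05 (purple), with the FDR of edgeR's test beside each. The intervals of Slc5a7, Chrna3 and Chrnb3 leave out 0, and every FDR shown is above 0.05.

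Levels were compared between genes per transcript length, with the deposited FPKM averaged over the 8 mice. Ache had the highest level of the 10 genes, with 44.5 ± 3.77 FPKM (SD, n = 8), and 91.5% of the 17500 genes had a lower mean. Chrna6 followed with 40.4 ± 4.94 FPKM, above Chrnb3 with 23.4 ± 2.75 and Chrnb2 with 19.0 ± 1.13 FPKM. Chrna4 had 11.04 ± 0.675 FPKM. Close to the middle of the table stood Chat with 5.92 ± 0.352, Slc18a3 with 5.72 ± 0.342 and Megf10 with 5.37 ± 0.449 FPKM, while Slc5a7 had 3.87 ± 0.441 FPKM. Chrna3 was lowest, with 2.48 ± 0.430 FPKM, and still above 35.4% of the genes. Between neighbours in this order, the ranges over mice overlapped for Ache and Chrna6, for Chrnb3 and Chrnb2, for Chat and Slc18a3, and for Slc18a3 and Megf10, and the other neighbours did not overlap. Within single mice, Ache was above Chrna6 in 6 of 8, Chrnb3 was above Chrnb2 in 8 of 8, Chat was above Slc18a3 in 7 of 8 and Slc18a3 was above Megf10 in 6 of 8. The level of Ache was thus far above that of Chat, and Ache is not limited to cholinergic cells. By counts, the 10 genes were measured with between 1109 counts (Chrna3 in the mouse with fewest) and 26086 counts (Chrna6 in the mouse with most) per library, so that the spread between mice, not counting, sets their precision.

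**Figure D3:**
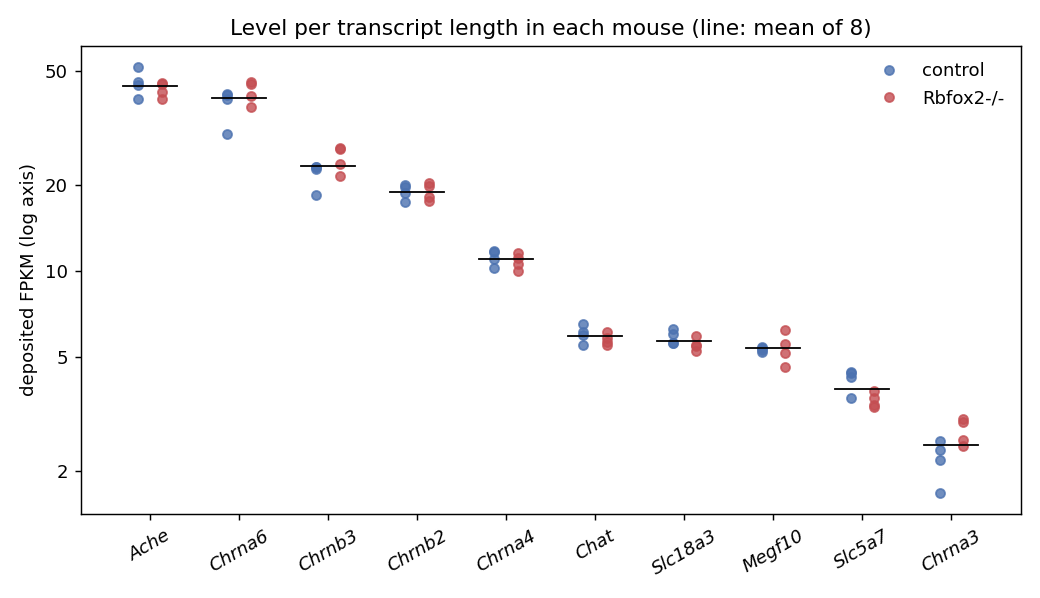
Deposited FPKM of each gene (vertical axis, log scale) in each control (blue) and Rbfox2-/- (red) mouse, ordered by the mean of all 8 mice (black line). Ache and Chrna6 lead with 44.5 and 40.4 FPKM, Chat, Slc18a3 and Megf10 lie near 5 to 6 FPKM, and Chrna3 is lowest with 2.48 FPKM.

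Across the 8 mice, Pearson's r passed its test for Chrna3, Chrna6 and Chrnb3 with each other and for no other pair of the 10 genes, and Spearman's rho for Chrna6 with Chrnb3 alone. Pearson correlations of log2(CPM + 1) were computed for all 45 pairs, of which 29 were positive, with a median r of 0.197 and a range of -0.532 to 0.967. After Benjamini-Hochberg adjustment over the 45 pairs, 3 pairs had a p under 0.05 in exact two-sided permutation tests. Chrna6 and Chrnb3, the neighbours on chromosome 8, had r = 0.967 (adjusted permutation p = 0.00558) and Spearman's rho = 0.976 (adjusted permutation p = 0.0179). Without the 2 mice farthest from the median of Chrna6, r was 0.949. Chrna3 with Chrna6 had r = 0.939 (adjusted permutation p = 0.0331) and rho = 0.881 (adjusted permutation p = 0.0815), and r fell to 0.716 without the 2 farthest mice. Chrna3 with Chrnb3 had r = 0.932 (adjusted permutation p = 0.0331) and rho = 0.810 (adjusted permutation p = 0.140), with 0.742 in the 6 remaining mice. The deviations from group means, pooled over both groups and not tested, gave r of 0.963, 0.959 and 0.897 for these 3 pairs. Without M901 and M902, r was 0.961, 0.918 and 0.901, and M833 stayed in both sets of values.

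The genes of acetylcholine synthesis and transport had r of 0.806 for Chat with Slc5a7, 0.781 for Slc18a3 with Slc5a7 and 0.743 for Chat with Slc18a3, none of which passed the adjustment (adjusted permutation p = 0.131, 0.131 and 0.177, with rho of 0.881, 0.905 and 0.833 and adjusted permutation p of 0.0815, 0.0815 and 0.115). The deviations from group means gave r of 0.886, 0.723 and 0.706 for these pairs, and r was 0.808, 0.649 and 0.608 without the 2 farthest mice. Chrna4 with Chrnb2 had r = 0.839 (adjusted permutation p = 0.123, rho = 0.833 with adjusted permutation p = 0.115), and 0.880 in the 6 mice left without the 2 farthest. Of the 45 values of r, the lowest was that of Slc18a3 with Megf10 (-0.532, adjusted permutation p = 0.545). That r was -0.02 without the 2 farthest mice, -0.55 for the deviations from group means and -0.87 without M901 and M902. The relation of Slc18a3 with Megf10 thus depended on the mice kept. Megf10 with Chat had r = -0.02 (adjusted permutation p = 0.985), and Megf10 with Slc5a7 had r = -0.13 (adjusted permutation p = 0.928).

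**Figure D4:**
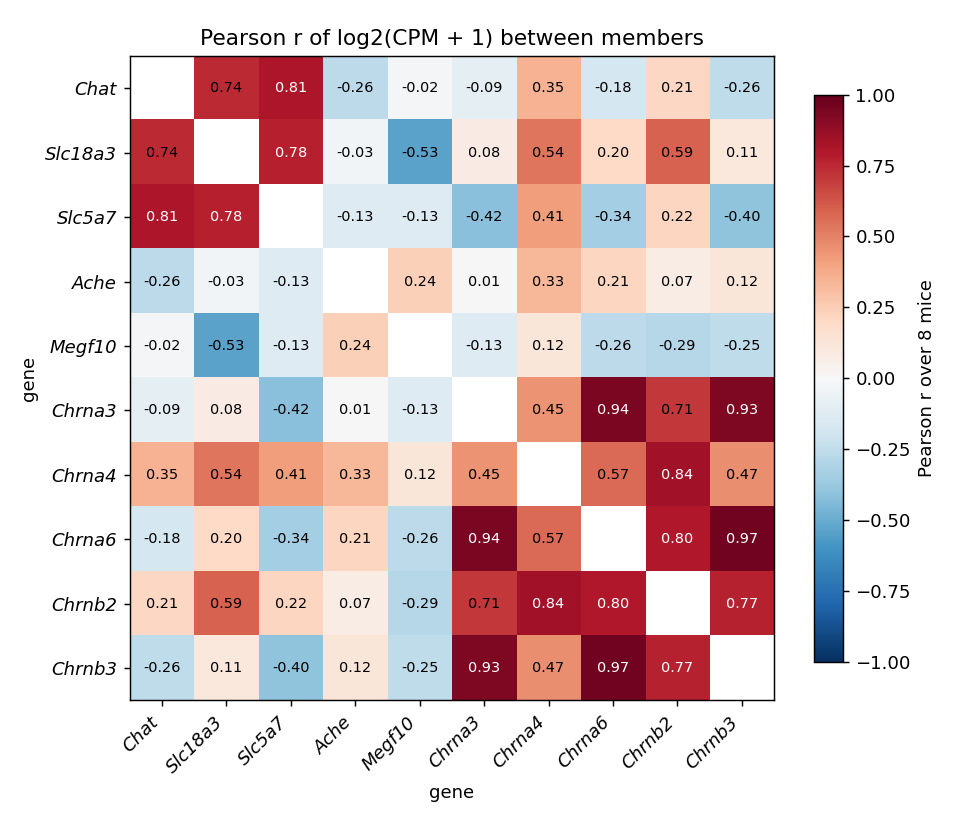
Pearson r over the 8 mice between each pair of the 10 genes on the log2(CPM + 1) scale, from -1 (blue) to 1 (red), with the value printed in each square. The highest value is that of Chrna6 with Chrnb3, 0.97, and only the 3 pairs among Chrna3, Chrna6 and Chrnb3 passed the adjustment.

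The nicotinic subunits were also set against the ganglion cell markers of the same mice. The sum of 10 ganglion cell markers (Rbpms, Slc17a6, Pou4f1, Pou4f2, Pou4f3, Nefl, Nefm, Nefh, Thy1 and Sncg) was 805 CPM in control M833, 1247 in M894, 1275 in M896 and 1294 in M898 and 1266 CPM in Rbfox2-/- mouse M893, 1322 for M901, 1157 for M902 and 996 for M909. M833 had the lowest sum and M909 the next, the same mice that were low for Chrna6 and Chrnb3 within their groups. Of the 10 markers, 0 had an FDR under 0.05 and 0 an unadjusted p under 0.05 in edgeR's quasi-likelihood test, with 0 at 0 CPM in all mice. In a family of 20 relations (the 10 genes against the ganglion and the amacrine sum), chosen after these values had been seen, Chrnb2 with the ganglion sum had r = 0.83 (adjusted permutation p = 0.00595) and rho = 0.952 (adjusted permutation p = 0.0228), with r = 0.837 without the 2 farthest mice. Chrna6 had r = 0.911 (adjusted permutation p = 0.0240) and rho = 0.714 (adjusted permutation p = 0.230), with r = 0.624 without the 2 farthest. Chrnb3 had r = 0.811 (adjusted permutation p = 0.0469) and rho = 0.643 (adjusted permutation p = 0.321), and r fell to 0.426 without the 2 farthest, so that it rests largely on those mice. Chrna3 had r = 0.745 and Chrna4 had r = 0.681, neither of which passed the adjustment (adjusted permutation p = 0.163 and 0.177, with rho of 0.595 and 0.905 and adjusted permutation p of 0.331 and 0.0456). Without the 2 farthest mice, r was 0.02 for Chrna3, whose relation thus rests on those mice, and 0.842 for Chrna4. The deviations from group means gave r of 0.951, 0.720, 0.992, 0.827 and 0.935 for Chrna3, Chrna4, Chrna6, Chrnb2 and Chrnb3. These values were pooled over both groups with M833 kept, and were not tested. The 2 farthest mice left out above included M833 for Chrna3, Chrna6 and Chrnb3, but not for Chrna4 and Chrnb2.

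With the log2 ganglion marker sum added to the edgeR fit, the standard errors of these subunits became smaller. The log2 fold changes were then 0.31 for Chrna3 (standard error 0.062, FDR = 0.0936), 0.14 for Chrna6 (standard error 0.027, FDR = 0.0864) and 0.17 for Chrnb3 (standard error 0.038, FDR = 0.130). The number of all genes at an FDR under 0.05 was 30 in this fit, and 0 of the 10 genes were among them, with 4 at an unadjusted p under 0.05 by edgeR. The part of ganglion cell content in these differences was not tested beyond this fit. Slc5a7 was the only one of the 10 genes to pass the adjustment with the amacrine sum (r = 0.838, adjusted permutation p = 0.0240, rho = 0.786 with adjusted permutation p = 0.186), with r = 0.983 without the 2 farthest mice and 0.689 for the deviations from group means.

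**Figure D5:**
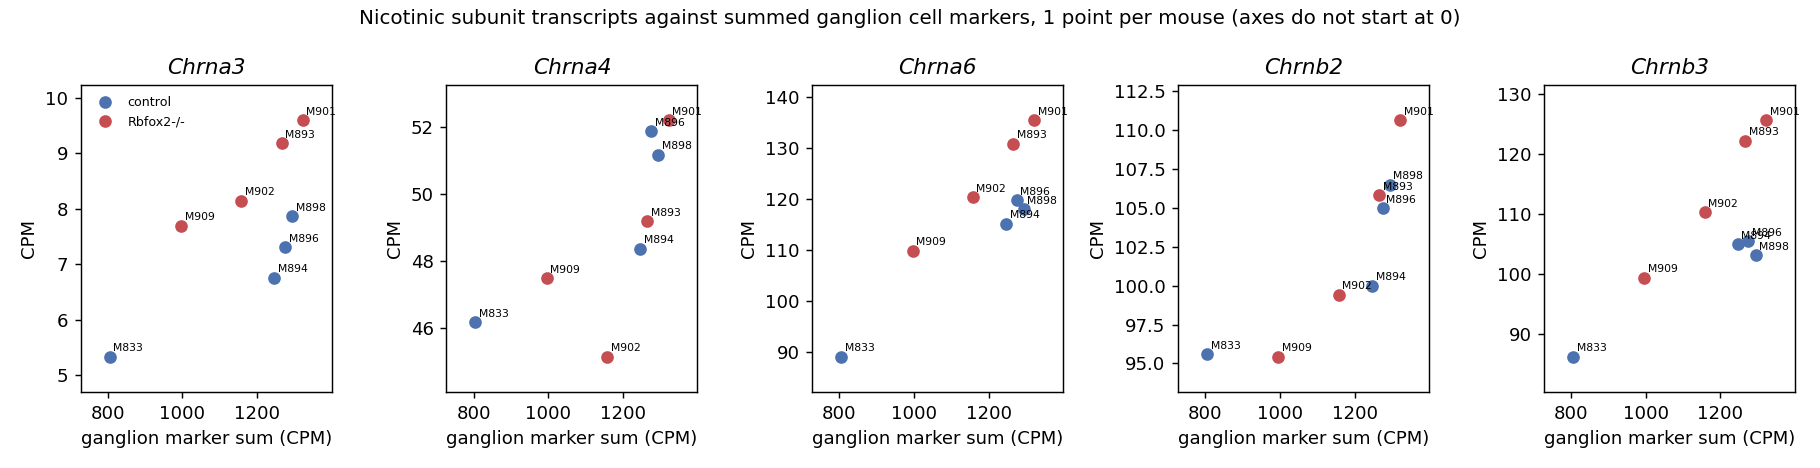
Level of each nicotinic subunit gene in CPM (vertical axes, not starting at 0) against the summed CPM of 10 ganglion cell markers (horizontal axes) in each control (blue) and Rbfox2-/- (red) mouse. M833, with a sum of 805 CPM, has the lowest Chrna3, Chrna6 and Chrnb3, and M893 and M901, with sums of 1266 and 1322 CPM, lie above every control for these genes.

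By likeness over the 8 mice, among 13746 other genes with a mean of at least 1 CPM, the patterns nearest to Chat were those of Rab33b (r = 0.941), Adra2b (r = 0.941) and Mcl1 (r = 0.935). Nearest to Chrna6 were Mfsd6 (r = 0.975), Hcfc1r1 (r = 0.975) and Exoc6b (r = 0.972). These r values are the highest of many and are given without a test.

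Further genes of acetylcholine signalling were read from lists of other nicotinic subunits, muscarinic receptors, choline handling, receptor accessory proteins and other starburst cell genes, 48 genes in all, of which 44 were in the table and 43 were tested. Of these, 0 had an FDR under 0.05 in edgeR's quasi-likelihood test (1 with DESeq2), and 5 had an unadjusted p under 0.05, all 5 lower in Rbfox2-/- retinas (6.87% of all genes were lower at this p). Their median log2 fold change was -0.04, with 28 genes below 0 and 15 (34.9%) above. Over all genes tested the median was 0.0016, with 50.7% above 0. In 3 genes, Isl1, Rnd3 and Chrm3, all Rbfox2-/- mice lay below all controls, as in 3.39% of all genes.

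Among the 13 other starburst cell genes, 3 had an unadjusted p under 0.05, all of them lower, against 6.87% of all genes. Isl1, a homeodomain factor of starburst, ON bipolar and ganglion cells, had 66.6 CPM in control M833, 69.6 in M894, 65.6 in M896 and 69.1 in M898. It had 60.3 CPM in Rbfox2-/- mouse M893, 59.3 for M901, 61.6 for M902 and 57.0 for M909, all below the lowest control. The log2 fold change was -0.19 (standard error 0.037, FDR = 0.116 with edgeR and 0.000929 with DESeq2). Isl1 is shared by these cell types, and the difference cannot be assigned to starburst cells. The sum of 6 bipolar cell markers was 1419 to 1538 CPM in controls and 1369 to 1459 CPM in Rbfox2-/- mice, and its part in the Isl1 difference was not tested. Rnd3, an atypical small GTPase, had 18.4 to 21.05 CPM in controls and 17.2 to 17.7 CPM in Rbfox2-/- mice (log2 fold change -0.17, standard error 0.050, FDR = 0.239). Megf11, the relative of Megf10 in starburst and horizontal cells, had 39.2 to 46.9 CPM in controls and 38.0 to 39.5 CPM in Rbfox2-/- mice (log2 fold change -0.14, standard error 0.054, FDR = 0.317). The gene with the highest level in this list was Gad1, the GABA-synthesizing enzyme that starburst cells share with other amacrine cells, whose log2 fold change was 0.03 (standard error 0.045).

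The other nicotinic subunits gave 0 of 7 tested genes with an unadjusted p under 0.05 and 0 with an FDR under 0.05 in edgeR's test. The highest of them was Chrna7, which forms homomeric receptors, with 13.2 to 15.1 CPM in controls and 13.6 to 14.8 CPM in Rbfox2-/- retinas (log2 fold change 0.01, standard error 0.054). For the neighbours of Chrna3 in its cluster, the log2 fold change was 0.21 for Chrna5, with a standard error of 0.12 like that of Chrna3. It was -0.27 for Chrnb4, with a wider standard error of 0.28. Chrna9, Chrna10, Chrnd and Chrng were not analysed here.

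All 5 muscarinic receptor genes, which encode G protein-coupled acetylcholine receptors, had log2 fold changes below 0, from -0.20 for Chrm4 to -0.004 for Chrm2, and 0 had an unadjusted p or an FDR under 0.05 in edgeR's test. Chrm1 had the highest counts of them (log2 fold change -0.15, standard error 0.084). Chrm3 had 10.7 to 11.2 CPM in controls and 10.1 to 10.6 CPM in Rbfox2-/- mice, without overlap (log2 fold change -0.09, unadjusted p = 0.0839, edgeR). Among 10 tested genes of choline handling, Prima1, the membrane anchor of acetylcholinesterase, had an unadjusted p of 0.0313 in edgeR's test (log2 fold change -0.21, standard error 0.082, FDR = 0.339), and the log2 fold change of the most abundant, the choline transporter gene Slc44a1, was 0.01 (standard error 0.043). Among 8 accessory protein genes, Ly6e, of the Ly6 family of lipid-anchored proteins, had an unadjusted p of 0.0481 in edgeR's test (log2 fold change -0.16, standard error 0.070, FDR = 0.373). The most abundant, Lynx1, whose product restrains nicotinic receptors, had -0.12 on the log2 scale (standard error 0.075).

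Rbfox proteins bind the element TGCATG (with U for T in RNA), and it was searched on the sense strand of 1 annotated transcript per gene. It was present in 53.5% of 14010 protein-coding transcripts of tested genes. Of the 10 genes, Slc18a3, Megf10, Chrna4 and Chrnb2 held 0 copies, Chat and Ache held 1 each, Chrna3 held 2, Chrna6 and Slc5a7 held 3 each and Chrnb3 held 4. Longer transcripts hold the letters more often, with 74.5% of the transcripts of similar length to Slc5a7 and 69.2% of those similar to Chrna3. The elements of the 2 genes with the lowest p are shown with flanking bases of the GENCODE M21 transcripts, numbered from the first base of the transcript, and capitals mark TGCATG.
Slc5a7, coding, element from base 584: tggaatatgggcTGCATGgaaaaccaaaaa
Slc5a7, coding, element from base 1168: gattcacagctgTGCATGctaaataccaga
Slc5a7, 3′ UTR, element from base 2820: ttcttgccatctTGCATGtgtactctctcc
Chrna3, 3′ UTR, element from base 3736: agactcgctgacTGCATGcagcccctgtgc
Chrna3, 3′ UTR, element from base 3948: actctttcacttTGCATGtctgtaaaatcg
These matches describe the letters and were not tested against the differences between groups. Introns, in which Rbfox proteins bind to direct splicing, were not examined, and gene counts do not show which exons were used.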

How the data were processed

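According to the study's methods, the authors used STAR to align paired reads of poly(A)-selected libraries (Nugen Universal Plus mRNA-seq kit) to mm10 and HTSeq to count the fragments of each gene from uniquely mapping reads. Both a RefSeq and an Ensembl annotation are named there for this counting, and the strand setting is not given in the sources used here. The submitters' processing notes name CASAVA 1.8.2 and edgeR. The authors deposited 1 table with raw counts and FPKM per mouse. The FPKM values were made by the authors and were used here only to compare levels between genes and for ratios within a mouse. The authors' normalized counts, their ratios of single mice to a group, fold changes and p-values in the table were not used.

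From the raw counts, genes were kept with filterByExpr of edgeR 4.0.16 (R 4.3.3), normalized by TMM and compared between 4 Rbfox2-/- and 4 control mice with the quasi-likelihood test without covariates. Benjamini-Hochberg adjustment ran over all 16797 genes. Standard errors and 95% intervals come from the same edgeR fit. CPM values use the TMM-normalized library size. Correlations used log2(CPM + 1) and two-sided exact permutation of the 8 mice, computed with NumPy 2.4.6, with ranks from SciPy 1.17.1. For a correlation, the 2 mice left out were those farthest from the median of the first gene named. Groups were taken from the genotype labels. Each library was labelled with a mouse of its own, and no pair of the 28 pairs of libraries was as alike as sampling noise allows. Alternatives were DESeq2 1.42.0, limma 3.58.1 (voom and trend), other normalizations and filters, leaving out each mouse, leaving out or modelling the libraries with high Xist, and 1 surrogate variable (sva 3.50.0). A fit with the ganglion marker sum and the relations of genes with marker sums were added after seeing the data. The procedure was tested on simulated counts.

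The genes described, the further lists and the marker lists were chosen with earlier results of these data known. Values are given for the 10 genes, for Rbfox2, for genes of each further list with an unadjusted p under 0.05 and its most abundant gene, and for the 3 genes most like Chat and Chrna6. Chrna5, Chrnb4, Chrm2, Chrm3, Chrm4 and Adar were named after their values had been seen. Tmem35a was found in the table under an older symbol. GRCm38 coordinates are those of GENCODE M21, and mm10 is the same assembly.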

Additional observations from a re-analysis of the deposited data

Results flagged for a closer look

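Among 108 groups of 4 mice examined (1 gene in 1 group of mice each), 11 had a mouse that lay far from the other 3 of its group by its gap to the nearest of them, and chance alone gives about 5.4, since it marks about 1 in 20 groups. Control M833 was low for Chrna6 (89.0 CPM, the other controls 115 to 119.7), Chrnb3 (86.2 CPM, others 103 to 105), Chrm1 (10.5 CPM, others 12.8 to 13.2) and Lynx1 (210.3 CPM, others 260 to 266). Its ganglion marker sum was also the lowest of the 8 mice, at 805 CPM, and the part of that sum in these values was not tested. Control M894 was low for Slc5a7, with 18.5 CPM where the others had 22.4 to 22.6 CPM.

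Among Rbfox2-/- mice, M909 was high for Slc44a4 (0.542 CPM, others 0.0063 to 0.0284) and Slc44a3 (0.875 CPM, others 0.617 to 0.659). M901 was high for Ric3 (139 CPM, others 132 to 133) and low for Slc44a5 (1.34 CPM, others 1.76 to 1.80). M893 was high for Chrm5 (0.614 CPM, others 0.462 to 0.473), and M902 was low for Ly6e (29.6 CPM, others 34.4 to 35.3). Slc44a4 did not pass the count filter.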

How the results depend on the processing

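In 19 alternatives for each of the 10 genes, 0 gave an FDR under 0.05, and 8 log2 fold changes turned sign while 182 did not, the 8 all in genes with a value near 0. These were Ache with 1 surrogate variable (0.0214), Megf10 without M909 (-0.0413), Chrna4 without M902 (0.00557), and Chrnb2 without M833 (-0.0166), without M901 (-0.0228), without both libraries with high Xist (-0.0192), with high Xist as a covariate (-0.0162) and with the ganglion marker sum as a covariate (-5.27e-05). With each mouse left out in turn, Megf10 ranged from -0.0413 to 0.0982, Chrna4 from -0.0644 to 0.00557 and Chrnb2 from -0.0228 to 0.0496. Of the 10 genes, 3 had an unadjusted p under 0.05, against 1 without M901, 4 without M909, 0 without M901 and M902 and 0 with high Xist as a covariate. With M901 and M902 left out, only 2 Rbfox2-/- mice remain.

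The count of all genes with an FDR under 0.05 was 11, and it was 465 with DESeq2, 30 with the ganglion marker sum, 5 with 1 surrogate variable, 4 with high Xist as a covariate, 1 without M901 and M902, and 5 to 35 with each mouse left out (35 without M833, 19 without M894, 6 without M898 and 5 without M893, M896, M901 or M909). At an unadjusted p under 0.05 the 2233 genes became 1027 without M901 and M902, 1113 with high Xist as a covariate and 1083 with 1 surrogate variable. Of the other cholinergic genes, 1 (Isl1) had an FDR under 0.05 with DESeq2, and the 5 at an unadjusted p under 0.05 became 2 without M901 and M902, 3 with high Xist as a covariate, 3 with 1 surrogate variable, 9 with the ganglion marker sum and 2 to 10 with each mouse left out (10 without M833, 3 without M901, 2 without M898 or M902). The cause of these shifts was not tested.

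No paired analysis was possible because the labels give each mouse a number of its own and share none between groups. The number of mice, not the depth, limits the precision of the 10 genes.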

Other observations

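Ratios of deposited FPKM within each mouse gave further values, formed after the levels had been seen and given without a test. Chrna3 relative to Chrna6 was 0.0547 to 0.0620 in control mice and 0.0630 to 0.0660 in Rbfox2-/- mice, without overlap but by a narrow margin. How often other ratios do so was not counted. Slc18a3 relative to Chat, the pair of genes in 1 locus, was 0.902 to 1.02 over all 8 mice, and Chrna6 relative to its neighbour Chrnb3 was 1.63 to 1.81.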
